A study of Mus musculus with 9 samples.

Results

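The genes described here are the chemokines and chemokine receptors of a targeted expression panel, measured in bone marrow T-cells of mice with and without B-cell acute lymphoblastic leukemia (B-ALL). Members were chosen by name, as probes whose symbol is Ccl, Ccr, Cxcl, Cxcr, Cx3cl, Cx3cr, Xcl, Xcr or Ackr followed by a number, with Ccr7 left out. The 17 members described here are among the 785 probes of the panel, and 13 encode chemokines and 4 encode receptors. The mice were unirradiated, female, wild-type C57BL/6 mice of 6 to 8 weeks, 3 per group. A first group had no leukemia and no treatment. The second received 200000 BCR-ABL1+ Arf-/- B-ALL cells, a mouse line that expresses luciferase and was transduced with GFP, and is called vehicle treated in the study, while the sample labels list these mice as not treated. The third received the same cells and rIL-12 (recombinant murine IL-12 p70) by intraperitoneal injection, at 1 µg per dose, daily for 5 days from day 3. Marrow was taken on day 7 and its T-cells were purified with a Pan-T-cell kit, so that each sample is 1 bulk isolate of 1 mouse. The leukemia is 1 established line, and the hosts kept their own immune cells.

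Chemokines are small secreted proteins that guide leukocytes by binding G protein-coupled receptors on the cell surface, and their families are named for the spacing of conserved cysteines. Cxcl9 is induced by interferon gamma and attracts activated T-cells and NK cells through Cxcr3. Ccl3 and Ccl5 bind Ccr1, while Ccl2 and Ccl12 bind Ccr2, the receptor that guides monocytes. IL-12 is best known for inducing interferon gamma in T-cells and NK cells.

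Of these genes, 2 passed the test in any comparison, and the reference promoters of both, Cxcl9 and Ccr1, are shown here as the sequence context of these genes. The sequences are from RefSeq (GRCm38.p6), hold the 250 bases before the annotated start, and read 5′ to 3′ on the minus strand. Capitals mark a match, on either strand, to a consensus form of the NF-kB site, bound by a factor known to act on many chemokine genes. This motif was chosen after the sequences were seen.
Cxcl9 (chr5:92328080-92328329): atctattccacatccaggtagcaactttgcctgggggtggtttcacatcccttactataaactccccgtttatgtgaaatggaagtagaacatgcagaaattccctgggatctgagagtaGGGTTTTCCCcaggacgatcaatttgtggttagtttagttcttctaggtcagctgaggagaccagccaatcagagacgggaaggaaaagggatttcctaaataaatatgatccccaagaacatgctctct
Ccr1 (chr9:123968693-123968942): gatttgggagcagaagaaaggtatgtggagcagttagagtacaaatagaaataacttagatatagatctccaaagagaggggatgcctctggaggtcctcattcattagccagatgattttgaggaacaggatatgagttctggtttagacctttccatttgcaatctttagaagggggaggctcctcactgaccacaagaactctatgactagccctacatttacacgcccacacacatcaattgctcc
The match in Cxcl9 lies at positions -130 to -121 from the start, and the Ccr1 window holds none. Of the 17 members, 14 had an entry in the promoter table, and 5 of these genes (Ccl20, Cxcl1, Cxcl2, Cxcl3 and Cxcl9) held the NF-kB motif, which is present in 4.11% of the 32851 windows of the same length. The interferon gamma activated site TTCNNNGAA, searched on both strands, was found in 0 of the 14 and in 7.02% of all windows. The interferon stimulated response element was found in 0 of the 14 and in 2.98%. Only these exact consensus forms were searched, so elements of another form, or outside the 250 bases, would be missed. The 0 matches therefore do not show that a promoter lacks an interferon element.

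The nCounter Mouse Immune Exhaustion panel was used to count RNA, and in this assay color-coded barcodes hybridize to single RNA molecules without amplification. Each value is a number of barcodes for 1 probe in 1 mouse. Total counts lay between 257613 and 711748 per mouse, the lowest in mouse 3 of the vehicle group. A probe for a viral gene that mice do not carry (LCMV glycoprotein) read 53 to 114 in single mice and 91 on average. It serves here as a guide to background, and the mean of 252 of the 785 probes did not exceed it. The guide is only 1 probe and not the floor of the panel, where the lowest count was 5.

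By that guide, 10 of the 17 members had a mean raw count at or below the viral probe and 7 had a mean above it. Ccr2, Ccl5, Cxcr6, Cxcr3, Cxcl9, Xcl1 and Ccl21a exceeded the viral probe of the same mouse in all 9 mice. Ccl2, Ccl3, Ccl4, Ccl12, Ccl20, Ccl22, Cxcl1 and Cxcl3 were below it in all 9 mice, and their raw counts spanned 13 to 88. Ccr1 exceeded it in 3 mice and Cxcl2 in 1. For the genes below the viral probe, part or all of the value can be background, and a fold change can then understate or overstate the change in RNA. Scaling to library size moves such counts too. For Ccl22, a raw count of 28 became 46.0 in vehicle mouse 3, and 29 became 23.0 in rIL-12 mouse 2. Raw counts of Ccr2 were the highest among the members (1557 to 5043), but probes differ in efficiency and levels were not compared between genes.

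**Figure D1:**
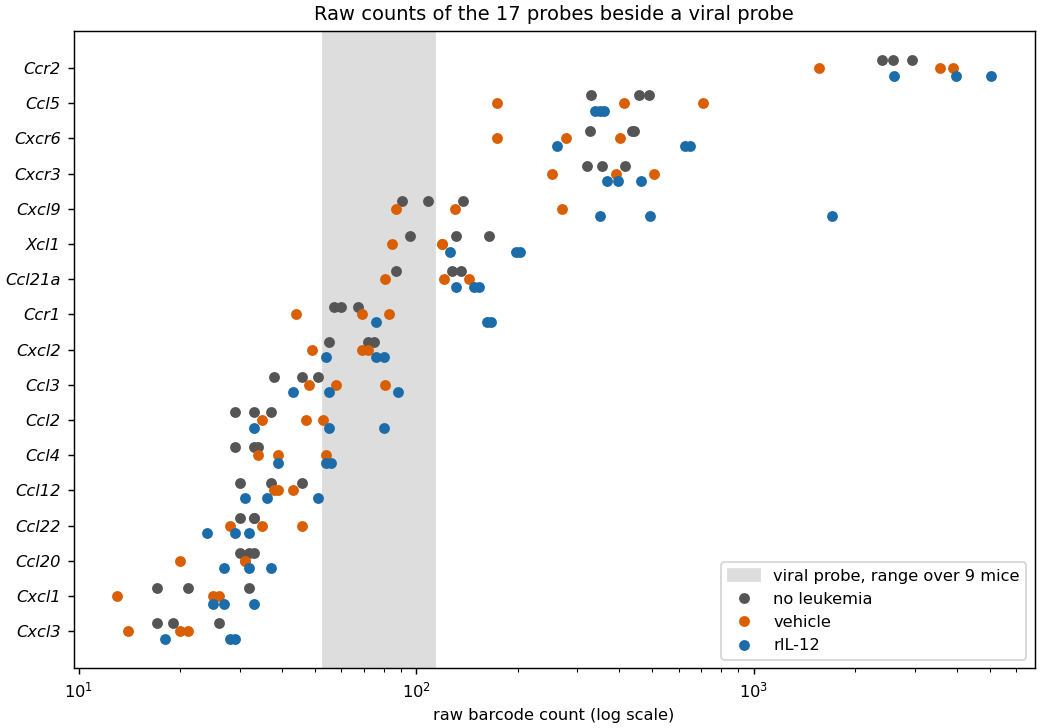
Raw barcode counts (log scale) of the 17 chemokine and chemokine receptor probes, with 1 point per mouse, colored by group, and the range of the viral probe over 9 mice (53 to 114) in gray. The points of Cxcl9 and Ccr1 from rIL-12 treated mice lie to the right of those from the other groups, except 1 rIL-12 treated mouse for Ccr1, while most CC and CXC chemokines sit at or left of the gray band.

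To ask which of these genes differ in T-cell isolates from mice with leukemia that received rIL-12, these mice were compared with mice without leukemia. Cxcl9 and Ccr1 were higher in rIL-12 treated mice, and no member was lower past the threshold, which was a change of 1.5-fold or more with an adjusted p under 0.05. The other 15 members did not pass. The 2 calls are 11.8% of the 17 members, where 17.6% of all 785 probes passed in either direction, 8.92% as higher and 8.66% as lower. The share of the members rests on 2 genes, and its difference from that of the panel was not tested. The median log2 fold change of the 17 members was 0.13, and that of all probes 0.024.

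Cxcl9 (NM_008599.4, chromosome 5, 92321331 to 92328079 in GRCm38.p6) had normalized counts of 94.9, 137 and 103 in mice 1, 2 and 3 without leukemia. They were 129, 245 and 143 in vehicle treated mice and 419, 1350.2 and 356 in rIL-12 treated mice. All 3 rIL-12 treated mice lay above all 6 other mice, and mouse 2 of the rIL-12 treated group stood far above the rest, whereas the vehicle treated mice overlapped with mice without leukemia. The means were 112 ± 22.5 (SD, n = 3) without leukemia, 172 ± 63.4 (SD, n = 3) with vehicle and 708 ± 557 (SD, n = 3) with rIL-12. Relative to mice without leukemia, Cxcl9 was 6.31-fold higher with rIL-12, a log2 fold change of 2.66 (SE 0.45, 95% interval 1.68 to 3.63), with an edgeR adjusted p of 0.00142. Its raw counts without leukemia were 91, 138 and 108, beside 53, 114 and 95 for the viral probe in the same mice. Part of that baseline can be background, so the size of the fold change is less certain. The exact two-sided permutation test gave p = 0.1, the smallest that 3 mice against 3 allow. Without rIL-12 mouse 2 the log2 fold change was 1.79, and the gene still passed. The methods' t-test with adjusted p did not call it.

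Ccr1 (NM_009912.4, chromosome 9, 123962126 to 123968692), a receptor known from monocytes and neutrophils, was the second. Normalized counts were 69.9, 56.7 and 57.0 without leukemia, 82.4, 62.6 and 72.3 with vehicle, and 141, 128 and 77.3 with rIL-12. All 3 rIL-12 treated mice lay above the mice without leukemia, but mouse 3 fell among the vehicle treated mice. Its raw counts were 57 to 67 without leukemia, inside the range of the viral probe. The log2 fold change was 0.91 (SE 0.23, 95% interval 0.41 to 1.42) with an edgeR adjusted p of 0.0157. The call was lost on leaving out leukemia-free mouse 2 (0.86) or 3 (0.92), or rIL-12 mouse 1 (0.75) or 2 (0.84). It was also lost when counts were scaled by housekeeping genes (0.58) or by the total count (0.73), at a 2-fold threshold and with the methods' t-test with adjusted p. A filter on probes at the viral probe leaves Ccr1 out.

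**Figure D2:**
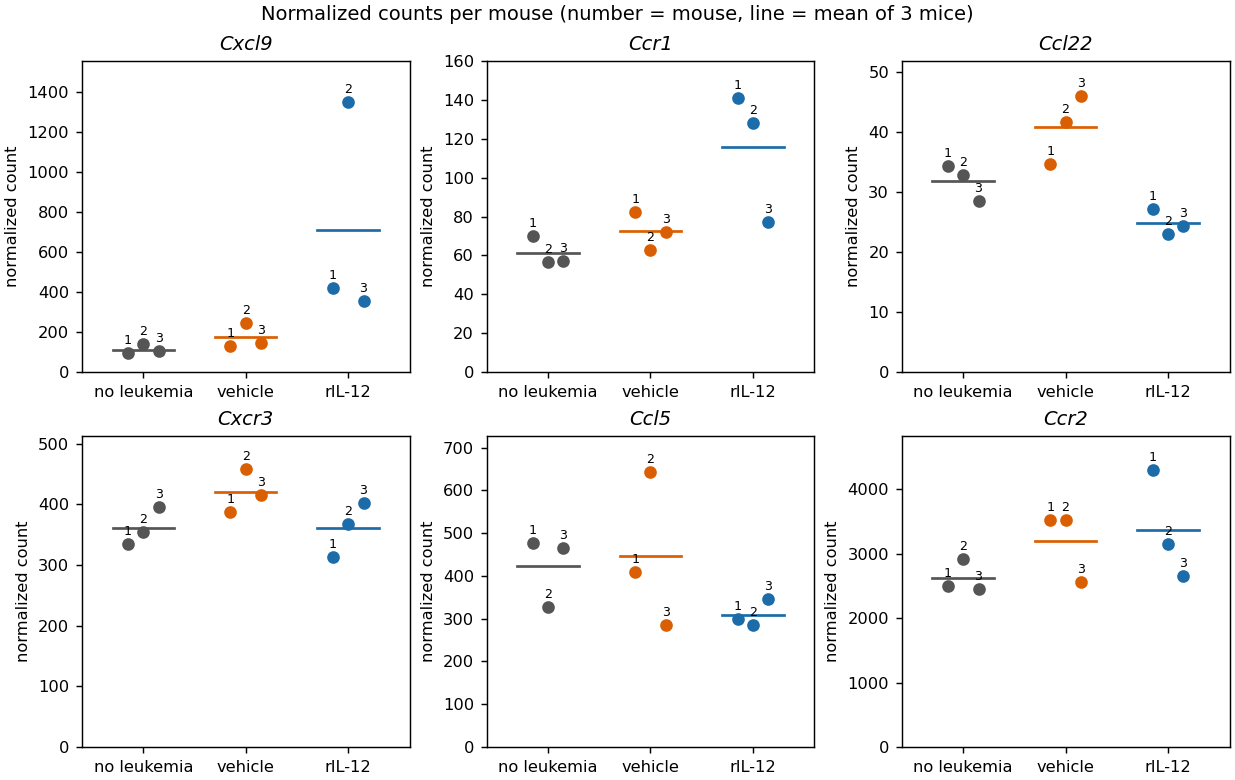
Normalized counts per mouse of Cxcl9, Ccr1, Ccl22, Cxcr3, Ccl5 and Ccr2 in mice without leukemia, vehicle treated mice and rIL-12 treated mice, with the mouse number beside each point and a line at the mean of 3 mice. Cxcl9 in rIL-12 treated mice spans 356 to 1350.2 and lies above both other groups, whereas Cxcr3, Ccl5 and Ccr2 overlap between all groups.

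The partners of these genes did not pass in this comparison. Cxcr3, the receptor of Cxcl9, had 361 ± 30.8 normalized counts (SD, n = 3) without leukemia and 361 ± 44.5 (SD, n = 3) with rIL-12, and the groups overlapped. Its exact permutation p was 1.0. Ccl5, a ligand of Ccr1 that cytotoxic T-cells make in quantity, had 478, 327 and 465 normalized counts without leukemia and 299, 284 and 345 with rIL-12. Mouse 2 without leukemia lay within the range of the rIL-12 treated mice, and the log2 fold change was -0.45 (SE 0.26, 95% interval -1.01 to 0.10, edgeR adjusted p = 0.263). Ccl3, with normalized counts of 36.1 to 50.7 without leukemia and 43.7 to 69.7 with rIL-12, had a log2 fold change of 0.26 (SE 0.24). Scaled by housekeeping genes, that value was -0.068. Ccl4 had 28.8 to 35.5 without leukemia and 39.7 to 46.0 with rIL-12, and these groups did not overlap, but the log2 fold change of 0.44 (SE 0.21) did not pass (edgeR adjusted p = 0.178).

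Among the other receptors, Ccr2 had normalized counts of 2453 to 2922 without leukemia and 2650 to 4294 with rIL-12, with a log2 fold change of 0.36 (SE 0.20, 95% interval -0.072 to 0.79). Cxcr6, Ccr1 and Ccr2 lie in this order on chromosome 9, with gaps of 150.4 kb from Cxcr6 to Ccr1 and 133 kb from Ccr1 to Ccr2. Of these 3 receptors, Ccr1 passed and Cxcr6 and Ccr2 did not. Cxcr6, a receptor of tissue-resident and activated T-cells, had 222, 496 and 659 normalized counts in rIL-12 mice 1, 2 and 3, against 325 to 462 without leukemia. Its log2 fold change was 0.20 (SE 0.30), and it turned to -0.058 with housekeeping scaling and to -0.15 without rIL-12 mouse 3.

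The remaining chemokines are given by their ranges. Ccl2, which recruits monocytes through Ccr2, had 30.3 to 36.8 normalized counts without leukemia and 28.1 to 63.4 with rIL-12, with a log2 fold change of 0.57 (SE 0.28), and it passed without rIL-12 mouse 1 (0.85). Ccl22, a ligand of Ccr4 made by dendritic cells, had 28.5 to 34.4 without leukemia and 23.0 to 27.2 with rIL-12. These groups did not overlap by normalized count, while raw counts were 30 to 33 and 24 to 32. The log2 fold change of -0.35 (SE 0.22) did not pass. Ccl12, Ccl20, Ccl21a, Cxcl1, Cxcl2, Cxcl3 and Xcl1 had 95% intervals that included 0, with group means between 20.4 and 129 without leukemia and between 22.3 and 156 with rIL-12. Xcl1, a chemokine of NK cells and CD8 T-cells that attracts cross-presenting dendritic cells, was at 100.2 to 156 and 107 to 201. The Ccl21a probe may also count near-identical copies of that gene, so its values are less certain. The annotated Ccl3 and Ccl4 loci overlap, and whether each probe counts only its own RNA was not checked. By normalized count, 3 of the 17 members did not overlap as higher (Cxcl9, Ccr1 and Ccl4) and 2 as lower (Ccl20 and Ccl22), or 29.4%. Of all probes, 35.5% did not overlap, 18.9% as higher and 16.7% as lower.

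**Figure D3:**
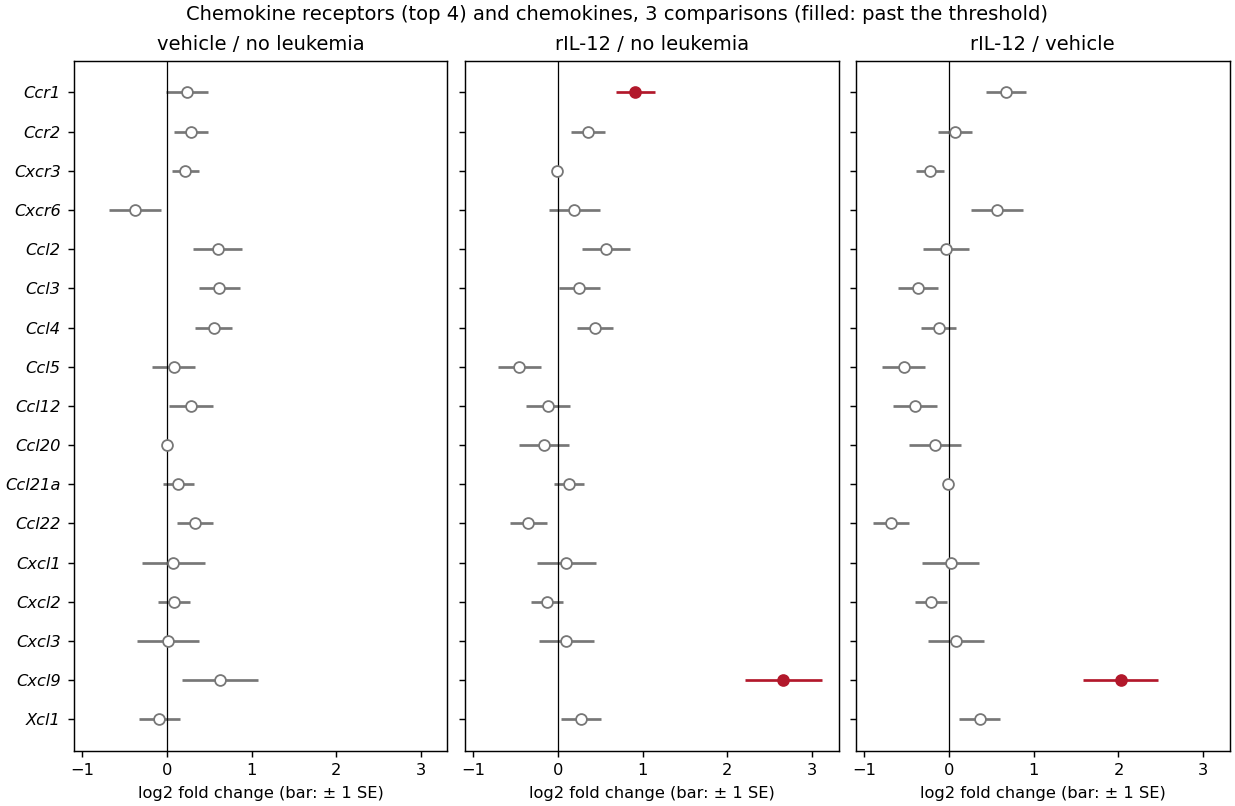
Log2 fold change of the 4 receptors and 13 chemokines in 3 comparisons, with bars of 1 SE (not drawn where the fold change is under 0.01) and filled points for genes past the threshold. Cxcl9 passes in both comparisons of rIL-12 treated mice, Ccr1 passes against mice without leukemia, and no gene passes between vehicle treated mice and mice without leukemia.

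The effect of leukemia without rIL-12 was addressed by comparing vehicle treated mice with mice without leukemia. By edgeR, 0 of the 17 members passed, where 2.68% of all probes did, 1.27% as higher and 1.40% as lower. With edgeR at an unadjusted p under 0.05 and the same fold, 1 gene did (Ccl3). DESeq2 called 0, the methods' t-test 0 with adjusted p and 2 without adjustment (Ccl2 and Ccl3), and a model of only these groups 0. The log2 fold change was above 0 for 15 of the 17 members, with a median of 0.22 against 0.049 for all probes. By normalized count, groups did not overlap for 4 members, all higher (Ccl2, Ccl3, Ccl4 and Ccl22), or 23.5%. Of all probes, 22.5% did not overlap, 12.7% as higher and 9.81% as lower.

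Cxcl9 had the largest log2 fold change of the members in this comparison, 0.63 (SE 0.44, 95% interval -0.33 to 1.59), and its groups overlapped. Ccl3 had normalized counts of 48.0, 50.7 and 36.1 without leukemia and 57.5, 73.5 and 78.8 with vehicle. Each vehicle treated mouse lay above each mouse without leukemia, at raw counts that stayed below the viral probe, and the log2 fold change was 0.62 (SE 0.24, edgeR adjusted p = 0.223). Its neighbor Ccl4 had 35.5, 28.8 and 31.4 against 38.7, 49.0 and 55.9, a log2 fold change of 0.56 (SE 0.22). Ccl2 had 30.3, 36.8 and 31.4 against 46.6, 48.1 and 57.5, a log2 fold change of 0.60 (SE 0.28). By normalized count, these 3 CC chemokines were thus higher in every vehicle treated mouse, and they did not pass the test across the panel. Raw counts in vehicle mouse 3, which had the lowest total count, were 35 for Ccl2, 48 for Ccl3 and 34 for Ccl4. Without leukemia raw counts were 29 to 37, 38 to 51 and 29 to 34, so the separation of that mouse rests on the scaling. Ccl22 had a log2 fold change of 0.33 (SE 0.21), Ccr2 of 0.29 (SE 0.20), Ccr1 of 0.24 (SE 0.24) and Cxcr3 of 0.22 (SE 0.16), and Cxcr6, with -0.37 (SE 0.31), was the receptor on the other side of 0. Ccl5 spread widely with vehicle, at 410, 643 and 284 normalized counts, across the range of 327 to 478 without leukemia.

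The rIL-12 treated mice were also compared directly with the vehicle treated mice, all with leukemia. Since the labels list the latter as not treated, whether they were injected is not settled here. Cxcl9 was higher with rIL-12, and the other 16 members did not pass. The call is 5.88% of the 17 members, where 13.8% of all probes passed, 8.54% as higher and 5.22% as lower. Of the 10 housekeeping probes, 4 themselves passed as higher in this comparison. Scaling by them, which moved the median of all probes from -0.084 to -0.49, gave 7 calls, with Cxcl9 higher and Ccl3, Ccl5, Ccl12, Ccl22, Cxcl2 and Cxcr3 lower. Scaling by the total count, with a median of all probes of -0.28, or a filter on a mean count of 20, gave Cxcl9 higher and Ccl22 lower. The share of higher and lower genes in this comparison therefore depends on the scaling, and Cxcl9 passed as higher under each scaling. Both comparisons with rIL-12 use the same 3 rIL-12 treated mice.

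Cxcl9 was 4.08-fold higher with rIL-12 than with vehicle, a log2 fold change of 2.03 (SE 0.44, 95% interval 1.08 to 2.98, edgeR adjusted p = 0.0151). The groups did not overlap, since the lowest rIL-12 treated mouse was at 356 normalized counts and the highest vehicle treated mouse at 245. The call was lost on leaving out vehicle mouse 2 (2.34), vehicle mouse 3 (1.92) or rIL-12 mouse 2 (1.16). It was also lost in a model of only these groups (2.12) and with the methods' t-test, adjusted or unadjusted (1.82).

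**Figure D4:**
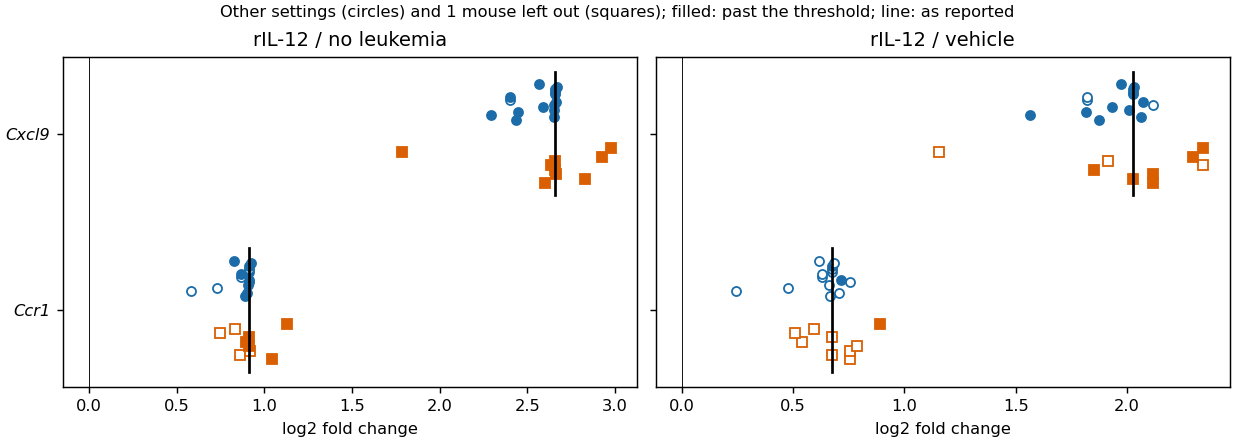
Log2 fold change of Cxcl9 and Ccr1 in rIL-12 treated mice against mice without leukemia (left) and against vehicle treated mice (right), under other settings (circles) and with 1 mouse left out (squares), filled where the gene passed the threshold. Every value lies above 0, and in the right panel Cxcl9 spans 1.16 to 2.34, with open points for calls that were lost, and Ccr1 0.24 to 0.89.

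Ccr1 had a log2 fold change of 0.68 (SE 0.23, 95% interval 0.17 to 1.18) and missed the threshold at an edgeR adjusted p of 0.0651. DESeq2 called it (0.71), and it also passed without rIL-12 mouse 3 (0.89). Ccl22 was at 34.7, 41.8 and 46.0 normalized counts with vehicle and 27.2, 23.0 and 24.4 with rIL-12. All rIL-12 treated mice were thus lower by normalized count. Raw counts, all below the viral probe, overlapped, at 35, 46 and 28 with vehicle and 32, 29 and 24 with rIL-12. The log2 fold change of Ccl22, -0.68 (SE 0.22, 95% interval -1.15 to -0.21), missed the threshold narrowly at an edgeR adjusted p of 0.0502. It passed with a filter on a mean count of 20 (-0.69), under housekeeping scaling (-1.09) and under total count scaling (-0.87). Ccl5 had a log2 fold change of -0.53 (SE 0.26), Ccl3 of -0.37 (SE 0.24), Ccl4 of -0.12 (SE 0.21) and Cxcr3 of -0.22 (SE 0.16). Cxcr6 had 0.57 (SE 0.31) and passed without rIL-12 mouse 1 (0.90). By normalized count, groups did not overlap for 3 members, Cxcl9 as higher and Ccl22 and Cxcl2 as lower, or 17.6%. Of all probes, 30.7% did not overlap, 15.4% as higher and 15.3% as lower.

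Genes that act downstream of chemokine receptors, such as kinases, small GTPases and STAT factors, were taken from a list of 92, of which 36 were matched to probes. With rIL-12, 2 of these were higher than without leukemia (Stat3 and Jak2), 2 were lower (Pik3cd and Prkcb) and 32 did not pass, and the list's median log2 fold change was 0.065. The 4 calls are 11.1% of the list, where 17.6% of all probes passed. Stat3, a factor downstream of many cytokine receptors, had a log2 fold change of 0.89 (SE 0.19), and Pik3cd, the leukocyte PI3K catalytic subunit, of -0.89 (SE 0.19). Against vehicle, 3 were higher (Jak2, Stat3 and, named after its values were seen, Hras) and 1 was lower (Pik3cd), with a median of 0.012, which is again 11.1%, where 13.8% of all probes passed. Housekeeping scaling gave 0 higher and 7 lower there, and total count scaling 2 higher and 3 lower. In both comparisons with rIL-12, Jak2, a kinase that signals from cytokine receptors, was higher, by 0.73 (SE 0.20) and 0.97 (SE 0.20) on the log2 scale. In vehicle treated mice 0 of the 36 passed, and edgeR gave 3 at an unadjusted p under 0.05 and DESeq2 2.

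A list of interferon gamma response genes, which held no member, was matched for 15 of 23 genes. It also holds Ifng itself and the kinases Jak1 and Jak2, which act upstream of the response. With rIL-12, 6 of the 15 were higher than without leukemia and 0 were lower, and the list's median was 0.23 on the log2 scale. Over all probes, 8.92% were higher and 8.66% lower, with a median of 0.024. Housekeeping scaling left 1 of these calls, and leaving out leukemia-free mouse 1 or rIL-12 mouse 2 gave 2 or 3. Those with the largest changes were Gbp2, an interferon-induced GTPase (4.50, SE 0.73), Ifng itself (1.39, SE 0.33), and the immunoproteasome subunits Psmb10 (1.21, SE 0.27) and Psmb9 (1.14, SE 0.25). Summed over the list, normalized counts were 5285 to 6186 without leukemia, 5321 to 7293 with vehicle, and 7533, 15727 and 12030 in mice 1, 2 and 3 with rIL-12. Gbp2 alone was at 125 to 161 without leukemia and at 479, 6022 and 3004 in these rIL-12 treated mice. The spread of the list's sum among them thus rests largely on that probe. Mouse 2 was the highest for both this sum and Cxcl9 in the rIL-12 and vehicle groups. Without leukemia, mouse 2 had the highest Cxcl9 and the lowest sum, and rIL-12 mice 1 and 3 stood in opposite order for the sum and for Cxcl9. Against vehicle, 2 of the 15 were higher (Gbp2 and, named after its values were seen, Jak2), or 13.3%, where 13.8% of all probes passed. The groups overlapped for Gbp2, with normalized counts of 691 in vehicle mouse 2 and 479 in rIL-12 mouse 1. In vehicle treated mice 0 passed, with 2 at an unadjusted p under 0.05 from edgeR and 1 with DESeq2. Jak2 is in both lists.

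The cells behind these values were checked with marker lists. All 11 T-cell markers found were above the viral probe on average, and 10 of the 11 were lower with rIL-12 than without leukemia and 0 higher, where 8.66% of all probes were lower, with the largest changes in Cd8b1, Cd8a, Cd3d and Lck. The summed T-cell markers were 6307 to 10688 normalized counts without leukemia, 3790 to 5654 with vehicle and 2014 to 3801 with rIL-12. In bulk samples, fewer cells of a type and less RNA per cell cannot be told apart. Of 8 myeloid markers, Fcgr1 (log2 fold change 1.11, SE 0.28) and Cd68 (0.75, SE 0.22), both known from macrophages, were higher with rIL-12 than without leukemia, and 6 did not pass. The 2 calls are 25.0% of the list, where 17.6% of all probes passed. Housekeeping scaling left 0 of these calls, total count scaling 1 and the methods' t-test 0, and leaving out leukemia-free mouse 1 or rIL-12 mouse 2 left 0. Against vehicle, Itgax, an integrin of dendritic cells and macrophages, was lower (log2 fold change -0.65, SE 0.20, edgeR adjusted p = 0.0463), at counts below the viral probe on average, and 7 did not pass. This is 12.5% of the list, where 13.8% of all probes passed. The call of Itgax was lost on leaving out any mouse other than vehicle mouse 1. Housekeeping scaling gave 3 myeloid markers as lower there, and DESeq2 gave 2 as higher and 1 as lower. Their summed level was 7816 to 9211 without leukemia, 8719 to 11827 with vehicle and 8943 to 12027 with rIL-12, and Cd14 and Itgax were at or below the viral probe. Of 4 NK cell markers, Klrk1 was higher and Klrd1 lower with rIL-12 than without leukemia, or 50.0%, where 17.6% of all probes passed. Against vehicle, only Klrk1 passed, as higher, or 25.0%, where 13.8% of all probes passed. That call was lost on leaving out vehicle mouse 2 or 3 or rIL-12 mouse 2. The NK cell sums were 2455 to 2978, 2006 to 2924 and 2429 to 3672, and Ncr1 was below the viral probe. Of 4 B-cell or B-ALL markers, 0 passed in any comparison by edgeR, with adjusted or unadjusted p, or by DESeq2, the sums were 1277 to 1345, 1411 to 1516 and 1418 to 1797, and Ms4a1 was below the viral probe on average. Most of the myeloid sum was Tyrobp (5324 to 8768 over all mice), of the NK cell sum Nkg7 (1531 to 3029) and of the B-cell sum Btk (875 to 1345). These sums therefore follow mainly 1 probe each. The 2 mast cell or basophil markers found, Ms4a2 and Cpa3, were higher in both leukemia groups than without leukemia. Of all probes, 1.27% were higher with vehicle and 8.92% with rIL-12. The sums of these 2 markers were 738 to 819, 1425 to 1723 and 1436 to 1850.4. The part of these shifts in the changes of Cxcl9 and Ccr1 was not tested.

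**Figure D5:**
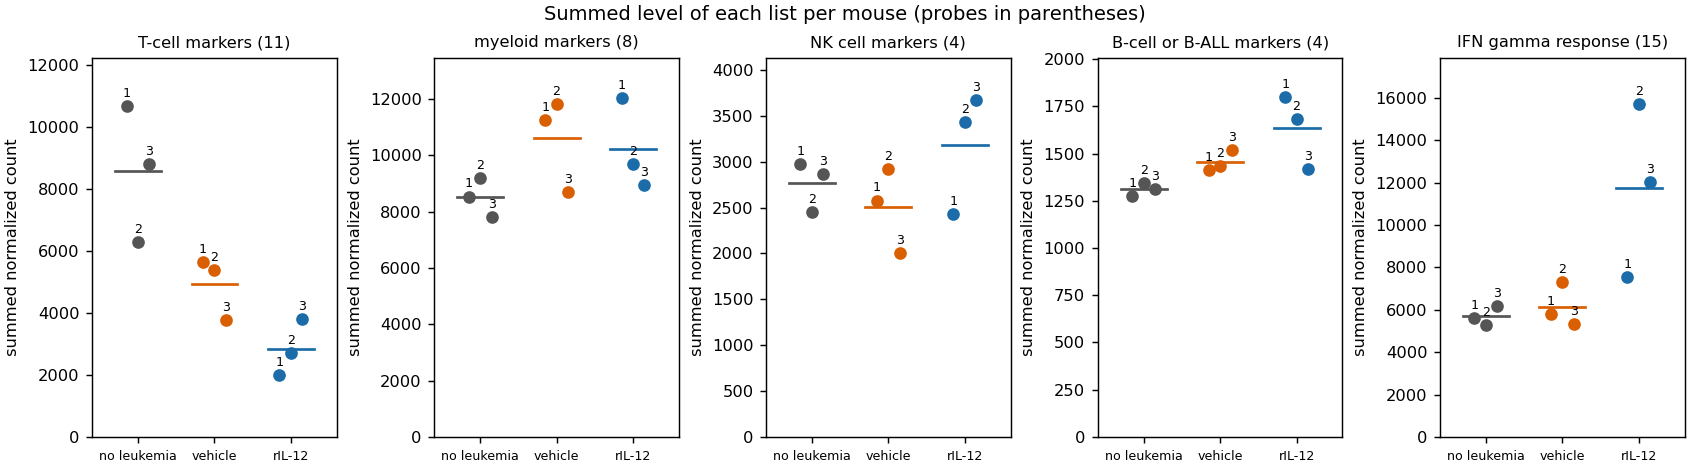
Summed normalized counts per mouse of 11 T-cell, 8 myeloid, 4 NK cell and 4 B-cell or B-ALL markers and 15 interferon gamma response genes in each group, with the mouse number beside each point and a line at the mean. T-cell markers lie at 6307 to 10688 without leukemia and 2014 to 3801 with rIL-12, and the interferon gamma response genes reach 15727 in mouse 2 with rIL-12. Tyrobp, Nkg7 and Btk make up most of the myeloid, NK cell and B-cell or B-ALL sums.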

How the data were processed

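The deposited values are raw counts of barcodes, whole numbers for each probe in each mouse, and not the nSolver-normalized data of the authors' methods. No alignment or genome build applies. Probes were matched to RefSeq symbols by transcript for 751 of 785, and 34 had no match.

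TMM (trimmed mean of M values) scaling was done in edgeR 4.0.16 (R 4.3.3) and followed by its quasi-likelihood model, all 9 mice in 3 groups, no replicate block, prior count 1, with Benjamini-Hochberg adjustment over all 785 probes. Normalized counts are counts divided by the TMM-scaled library size. SEs follow from the F statistic. By replicate number, mice without leukemia and vehicle treated mice correlated in their deviations from the group means at 0.26, 0.11 and 0.13. These values exceed a minimum of 0.1, a hint from the data only. The labels number the mice but state no pairing, and the main model used none. Same-numbered mice that included a rIL-12 treated mouse did not reach that minimum throughout. Single values were compared with an exact permutation test. No mouse repeated another of its group within counting error (chi-square over degrees of freedom, 5.54 to 60.0).

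Members and lists were chosen with earlier results of these data known. The name rule finds 18 probes, of which 17 are described, and some items of the rule and the lists are not reported here. All 785 probes stayed in every fit and in the shares given for all probes. Members past the threshold, or among the 2 largest changes of a comparison, are given in full, and at most 4 genes past the threshold are named per list, with exceptions stated. The NF-kB motif, edgeR's unadjusted p and the alternatives for the lists were chosen after seeing the data. Alternatives were a replicate block, DESeq2 1.42.0 and its size factors, scaling by 10 housekeeping genes or the total count, filters on a mean count of 20 or the viral probe's, a model of 2 groups, the methods' t-test, other fold thresholds, prior counts of 0.1 and 10, and leaving out each mouse.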

Additional observations from a re-analysis of the deposited data

How the results depend on the processing

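The direction of Cxcl9 and Ccr1 was the same under every alternative run. Of the 51 pairs of a member and a comparison, 22 changed sign under at least 1 alternative, and the largest of these was 0.36 on the log2 scale. They include Ccl3 in rIL-12 treated mice against mice without leukemia, with housekeeping scaling (-0.068). Cxcr6 in that same comparison changed sign with housekeeping scaling (-0.058). With 1 mouse left out, Cxcr6 ran from -0.15 without rIL-12 mouse 3 to 0.53 without rIL-12 mouse 1. Same-numbered mice correlated at -0.19 to 0.0066 between rIL-12 and no leukemia and at 0.018 to 0.33 between rIL-12 and vehicle, so the numbers do not pair those groups, and 3 of 9 mice correlated best with their own number. The replicate block left the members called at 0, 2 and 1, and turned the myeloid markers called with rIL-12 against vehicle from 1 lower to 2 higher. Housekeeping scaling moved the median of all probes by the most, to -0.28 for rIL-12 against no leukemia and -0.49 against vehicle.

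Members called with vehicle against no leukemia numbered 2 with the methods' t-test unadjusted and 1 with edgeR unadjusted, and 0 to 0 with 1 mouse left out. With rIL-12 against no leukemia, housekeeping scaling, total count scaling, the viral probe filter and a 2-fold threshold each gave 1, the adjusted t-test of the methods gave 0, and leaving out 1 mouse gave 1 (leukemia-free mouse 2 or 3, or rIL-12 mouse 2) to 2. With rIL-12 against vehicle, counts were 7 with housekeeping scaling, 2 with total count scaling, 2 with the filter on a mean count of 20, 2 with DESeq2, 0 in a model of 2 groups, 0 with the methods' t-test adjusted, 3 with edgeR unadjusted, and 0 (vehicle mouse 2 or 3, or rIL-12 mouse 2) to 2 (rIL-12 mouse 1 or 3) with 1 mouse left out. The methods' t-test unadjusted gave 1 there, which was Ccl22 as lower and not Cxcl9.

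For the signalling list with vehicle, counts were 3 in a model of 2 groups, 2 with DESeq2, 3 with the t-test unadjusted and 3 with edgeR unadjusted, and 0 to 1 with 1 mouse left out. With rIL-12 against no leukemia they were 0 with the t-test adjusted and 0 at a 2-fold threshold, and 2 (leukemia-free mouse 1 or rIL-12 mouse 2) to 8 (rIL-12 mouse 3) with 1 mouse left out. Against vehicle they were 7 with housekeeping scaling, 2 in a model of 2 groups, 7 with DESeq2, 0 with the t-test adjusted, 0 at a 2-fold threshold, and 0 (vehicle mouse 2 or 3, or rIL-12 mouse 2) to 12 (rIL-12 mouse 3) with 1 mouse left out. For the interferon gamma list with vehicle, counts were 2 in a model of 2 groups, 1 with DESeq2, 2 with edgeR unadjusted, and 0 to 1 with 1 mouse left out. With rIL-12 against no leukemia they were 1 with housekeeping scaling, 0 with the t-test adjusted, and 2 (leukemia-free mouse 1) to 7 with 1 mouse left out, with 3 for rIL-12 mouse 2. Against vehicle they were 1 in a model of 2 groups, 6 with DESeq2, 0 and 1 with the t-test adjusted and unadjusted, 1 at a 2-fold threshold, 8 with edgeR unadjusted, and 0 (vehicle mouse 2 or 3, or rIL-12 mouse 2) to 5 (rIL-12 mouse 1) with 1 mouse left out. The replicate block gave 3 there. T-cell markers lower with rIL-12 than without leukemia numbered 7 to 10 and myeloid markers called 0 to 2 with 1 mouse left out. Leaving out leukemia-free mouse 1 lost the call of Klrk1 there, and the calls of Ms4a2 and Cpa3 with vehicle were lost without leukemia-free mouse 1 or 3 or vehicle mouse 3. The causes of these shifts were not tested. With 3 mice per group and 8 members below the viral probe in all mice, small changes in the low chemokines could not be resolved.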
